A study of Mus musculus with 18 samples.

Results

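The 9 genes described here encode factors of nucleotide excision repair: Xpc, Ddb2, Ddb1, Xpa, Ercc1, Ercc2, Ercc3, Ercc4 and Ercc5. They were found as the rows of the expected-count table whose Ensembl identifiers carry these symbols in GENCODE M21, and they make up 9 of its 51912 rows. Xpc and Ddb2, the 2 genes whose products find damage in the whole genome, were set against the other 7, called core factors below, in each of 6 genotypes. All 9 genes passed the filter on low counts, as did 15710 genes in all.

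RNA was sequenced from primary mouse embryonic fibroblasts (MEFs), cells grown out of embryo bodies. The embryos came from crosses of Pole4+/- Trp53+/- mice on a C57BL/6 background, and the cells were kept at 5% oxygen in medium with 15% serum and used at passage 1. The 6 genotypes combined Pole4+/+ or Pole4-/- with Trp53+/+, Trp53+/- or Trp53-/-, with 3 libraries each, 18 in all, and every allele was carried in the germline. POLE4 is an accessory subunit of DNA polymerase epsilon, and TRP53 (p53) is a stress-activated transcription factor, so the crossed design asked how each loss changed the transcriptome with and without the other. The labels name no DNA-damaging treatment. They number the libraries without tying them to embryos or litters, and the p-values measure only the spread between these libraries, which may be technical.

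Nucleotide excision repair removes bulky lesions such as those that ultraviolet light leaves in DNA. In the genome-wide branch, XPC and the DDB1-DDB2 complex find the lesion, while in transcribed strands a stalled RNA polymerase does so. The helicases of TFIIH then open the helix, XPA and RPA check and hold it, 2 nucleases cut out the damaged strand, and a DNA polymerase and ligase fill the gap. Ddb2 and Xpc are textbook p53 targets in human cells, and mouse Ddb2 is known to respond to p53 poorly.

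Library totals ran from 9535971 to 35319918 expected counts with a median of 22781543, and ribosomal RNA genes took 0.968% to 42.5% of them. Trp53 itself stood at 90.8 ± 4.81 CPM (counts scaled by TMM-adjusted library size, mean ± SD, n = 3) in Pole4+/+ Trp53+/+ cells and at 10.7 ± 1.83 CPM in Pole4+/+ Trp53-/- cells. In Pole4-/- cells the same step was from 69.1 ± 4.40 to 11.4 ± 1.15 CPM. Pole4 was at 16.3 to 22.9 CPM in Pole4+/+ Trp53+/+ cells and at 9.26 to 11.2 CPM in Pole4-/- Trp53+/+ cells, so reads were still counted for the gene. Of 9 fibroblast markers, 7 were above 10 CPM in every library, and all 4 erythroid markers were below 1 CPM in every library. In bulk RNA, fewer cells of a type and less RNA per cell cannot be told apart.

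The promoters of 4 of the 7 core factors, Ercc5, Ercc4, Ercc2 and Xpa, are shown beside the unequal results of these genes, of which Ercc5 and Ercc4 were called and Ercc2 and Xpa were not. They come from RefSeq on GRCm38.p6 and are printed only up to the base before the annotated gene, which leaves 250 bases for Ercc5 and Xpa, 243 for Ercc2 and 198 for Ercc4, read 5′ to 3′ along the gene's strand, with matches to the searched motifs in capitals.

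Ercc5, chr1:44147494-44147743, plus strand: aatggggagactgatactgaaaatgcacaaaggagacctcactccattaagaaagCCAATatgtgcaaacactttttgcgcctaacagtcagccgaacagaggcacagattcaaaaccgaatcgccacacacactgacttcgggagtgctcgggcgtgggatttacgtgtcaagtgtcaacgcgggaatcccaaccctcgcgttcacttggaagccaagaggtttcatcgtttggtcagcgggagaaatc
Ercc4, chr16:13109486-13109683, plus strand: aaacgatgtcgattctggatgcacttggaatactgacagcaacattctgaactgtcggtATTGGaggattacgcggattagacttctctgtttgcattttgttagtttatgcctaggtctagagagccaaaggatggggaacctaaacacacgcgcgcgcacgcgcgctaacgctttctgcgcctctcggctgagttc
Ercc2, chr7:19381767-19382009, plus strand: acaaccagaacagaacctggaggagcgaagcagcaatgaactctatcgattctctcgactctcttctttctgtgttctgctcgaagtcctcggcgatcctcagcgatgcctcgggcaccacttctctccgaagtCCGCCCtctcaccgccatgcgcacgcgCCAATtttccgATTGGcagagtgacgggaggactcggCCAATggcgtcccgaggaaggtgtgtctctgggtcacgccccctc
Xpa, chr4:46196312-46196561, minus strand: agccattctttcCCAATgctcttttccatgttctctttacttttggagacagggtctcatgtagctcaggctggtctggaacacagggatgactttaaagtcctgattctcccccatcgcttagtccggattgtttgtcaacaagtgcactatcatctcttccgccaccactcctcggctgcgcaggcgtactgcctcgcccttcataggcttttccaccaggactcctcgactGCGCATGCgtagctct

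Motifs were searched on both strands in the 250 bases before the start of 6 members and of all 32851 genes with an entry. Xpc, Ddb2 and Ercc3 had no entry, so neither recognition gene was searched. CCAAT, the box bound by NF-Y, was found in Ercc2, Ercc4, Ercc5 and Xpa and in 33.8% of all windows. GGGCGG, the GC box bound by Sp1, was found in Ddb1, Ercc1 and Ercc2 and in 32.7% of all windows. The Ddb1 and Ercc1 windows lie within the annotated gene and are not printed. GCGCATGC, the core of the NRF1 motif, was found in Xpa and in 2.26% of all windows. The p53 half-site was found in 0 of the 6 members and in 7.13% of all windows, and the E2F-type letters TTTGGCGC and TTTCCCGC in 0 of the 6 and in 0.417% and 0.895%. These matches are descriptions of letters in short windows and not of binding, and 0 matches in 6 windows say little at these shares.

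Per kilobase of exon, Ddb1 had the highest level of the 9 genes, 111.5 CPM per kilobase over the 18 libraries. Ercc3 followed with 13.3, Ercc1 with 6.85, Ercc5 with 4.68, Ercc2 with 3.66, Xpa with 3.62, Ercc4 with 1.98 and Xpc with 1.68 CPM per kilobase. Ddb2 was the lowest at 0.461 CPM per kilobase, which rested on 9 to 108 counts per library, so its values carry far more counting error than those of Ddb1, with 5142 to 31680 counts.

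The spread across genotypes was widest for Ddb2 and Ercc5. The lowest and highest genotype means differed 3.45-fold for Ddb2 and 3.15-fold for Ercc5, against 1.05-fold for Ercc3, 1.11-fold for Ddb1 and 1.13-fold for Xpc. The 4 remaining genes lay between 1.25-fold and 1.35-fold.

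**Figure D1:**
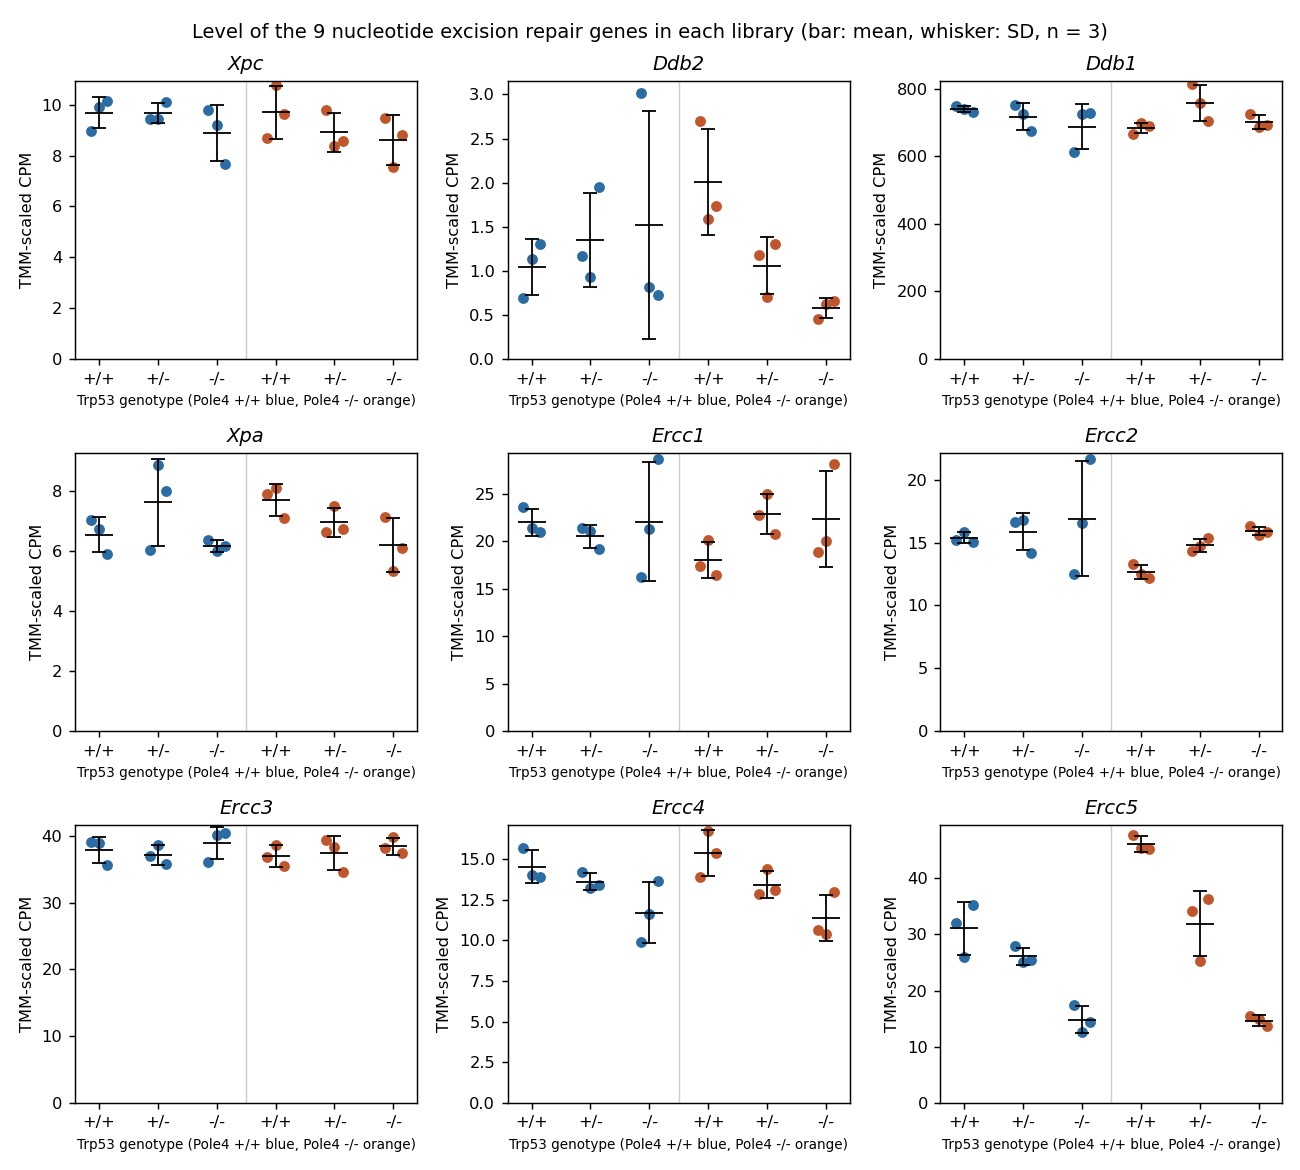
Level of each of the 9 genes in TMM-scaled CPM (vertical axis, from 0, own scale per gene) in the 3 libraries of each genotype, with the mean and SD. Ercc5 steps down with each lost Trp53 allele in Pole4-/- cells (orange), from a mean of 46.2 to 14.6 CPM, while the Xpc means stay between 8.61 and 9.70 CPM.

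Loss of both Trp53 alleles in Pole4-/- cells lowered 3 of the 9 genes and raised 0 of them. Ercc5, which encodes the XPG nuclease that cuts on the 3′ side of the lesion, fell 3.15-fold, Ddb2 fell 3.52-fold in the fit, and Ercc4, which encodes the XPF nuclease subunit, fell 1.35-fold. Among the 8 comparisons made this one had the most calls: 20.8% of all 15710 genes passed the test downwards and 21.8% upwards, with an adjusted p below 0.05 (edgeR quasi-likelihood test, Benjamini-Hochberg over all genes). The median log2 fold change of the 9 genes was -0.17, beside -0.02 over all genes tested. Of the 7 core factors 2 were called, with a median of 0.04. The groups did not overlap for 3 of the 9 genes downwards and 1 upwards, where 28.5% of all genes had such a gap downwards and 28.5% upwards.

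In Pole4+/+ cells the same loss lowered 1 of the 9 genes, Ercc5, 2.10-fold, and raised 0 of them. Of all genes tested, 2.37% were called lower and 2.23% higher. The median log2 fold change of the 9 genes was -0.09, beside 0.03 over all genes. Ercc4 and Ddb1 had all 3 Trp53-/- libraries below all 3 Trp53+/+ libraries without passing the test, as Ercc5 did with it. Of all genes, 8.31% had such a gap downwards and 8.24% upwards.

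**Figure D2:**
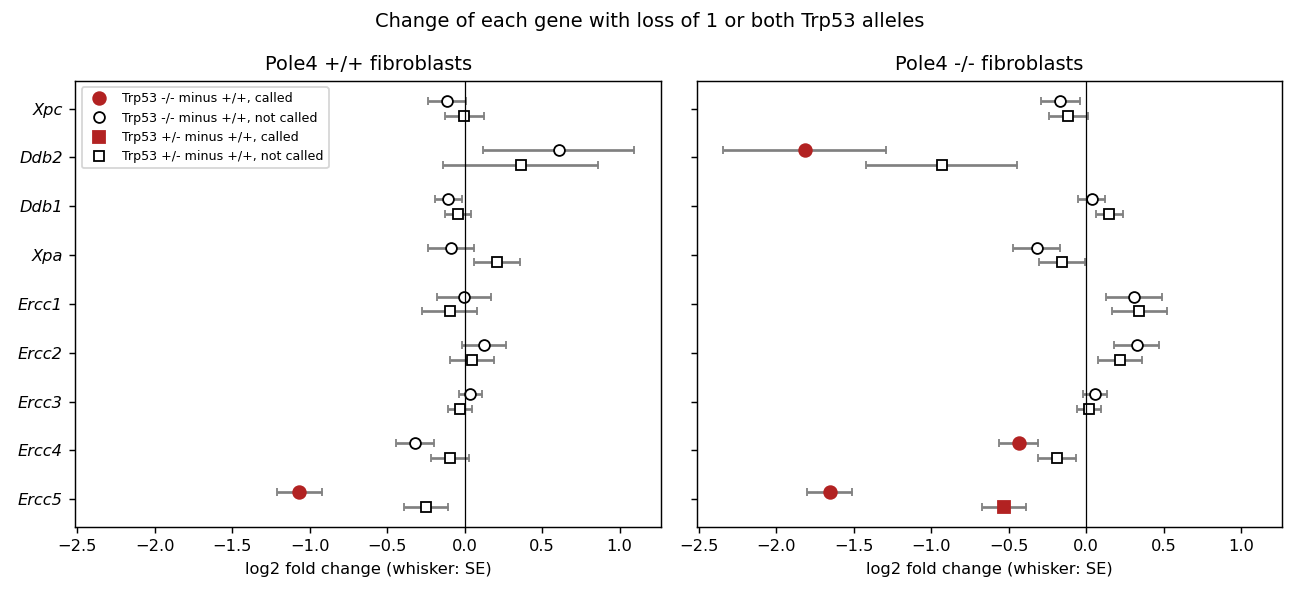
Log2 fold change of each gene (horizontal axis, whisker SE) on loss of both Trp53 alleles (circles) or 1 allele (squares), in Pole4+/+ (left) and Pole4-/- (right) cells, filled red where the adjusted p was below 0.05. Ercc5 was called in 3 of the 4 comparisons, from -0.53 to -1.66, and Ddb2 and Ercc4 in 1 each.

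Xpc encodes the subunit that senses the distorted helix and starts genome-wide repair. The gene (ENSMUSG00000030094, chr6:91489305-91515888, minus strand, GRCm38) was read at 8.98, 9.93 and 10.1 CPM in Pole4+/+ Trp53+/+ cells and at 9.79, 9.20 and 7.68 CPM in Pole4+/+ Trp53-/- cells. In Pole4-/- cells the values were 8.69, 10.8 and 9.64 CPM with Trp53 and 9.48, 7.54 and 8.82 CPM without it. The libraries of all 6 genotypes overlapped, and each genotype overlapped its neighbour when the 6 were ordered by mean.

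No comparison called Xpc. On loss of both Trp53 alleles Xpc changed by -0.17 on the log2 scale in Pole4-/- cells, with an SE of 0.13, an adjusted p of 0.324 by edgeR and a 95% interval from -0.45 to 0.11. In Pole4+/+ cells it was -0.11 (SE 0.13, adjusted p = 0.823), with an interval from -0.39 to 0.16. The unadjusted p by edgeR was 0.562 there, larger than this SE implies, so the interval may be too narrow. Loss of Pole4 in Trp53+/+ cells changed it by 0.00 on the log2 scale with an interval from -0.28 to 0.28.

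Ddb2 encodes the damage-binding subunit that, with DDB1, brings a ubiquitin ligase to ultraviolet lesions. The gene (ENSMUSG00000002109, chr2:91211572-91236982, minus strand) was read at 2.70, 1.59 and 1.74 CPM in Pole4-/- Trp53+/+ cells, from 72, 19 and 13 counts. In Pole4-/- Trp53-/- cells it was 0.454, 0.628 and 0.663 CPM, from 10, 12 and 10 counts. Those 2 groups did not overlap, and all 3 Pole4-/- Trp53+/- libraries lay between them at 1.18, 0.701 and 1.3 CPM.

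The Ddb2 change in Pole4-/- cells was -1.82 on the log2 scale (SE 0.53, adjusted p = 0.0115 by edgeR). An exact two-sided permutation test of these 3 against 3 libraries gave p = 0.1, the smallest this design allows. Without Pole4-/- Trp53+/+ replicate 1, the highest of its group, the change was -1.49 and the adjusted p 0.0669 by edgeR.

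In Pole4+/+ cells, Ddb2 was 0.695, 1.14 and 1.31 CPM with Trp53 and 3.01, 0.815 and 0.728 CPM without it. A single library, Pole4+/+ Trp53-/- replicate 1 with 108 counts, was the highest of all 18, and the other 2 lay within the Trp53+/+ range. Ddb2 changed by 0.61 on the log2 scale there, with an SE of 0.49 and an adjusted p of 0.572 by edgeR, and by -0.43 without that library. The same library held Y-linked transcripts at 9.08 CPM although it expressed Xist, where the other 10 libraries with Xist reached at most 0.337 CPM.

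The Ddb2 changes of the 2 backgrounds differed by -2.42 on the log2 scale (SE 0.72, adjusted p = 0.0688), which did not pass the test in edgeR. That test called 0 of the 9 genes, with 2 at an unadjusted p below 0.05, beside 0.153% of all genes called lower and 0.178% higher. DESeq2 and limma voom each called 1 of the 9, Ddb2, with adjusted p = 0.0263 and 0.0439. DESeq2 called far more genes here than edgeR, 863 of all 15710 lower and 928 higher. The count over all genes for voom is not given here. Without Pole4+/+ Trp53-/- replicate 1 the difference was -1.41 with an adjusted p of 0.206 by edgeR, while without replicate 2 or 3 of that group it passed, at -2.74 each and with adjusted p of 0.0303 and 0.0205.

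Part of the Ddb2 gene lies over Acp2, a lysosomal acid phosphatase gene on the opposite strand, with 2527 bases shared. Acp2 had more reads, up to 47.0 CPM, and the library kit did not mark strand, so reads of the 2 genes in the shared bases cannot be told apart. Acp2 was 45.9 ± 1.06 CPM in Pole4-/- Trp53+/+ cells and 25.6 ± 1.23 CPM in Pole4-/- Trp53-/- cells (a change of -0.84 on the log2 scale with adjusted p = 0.00125). It was 42.3 CPM in the Pole4+/+ Trp53-/- library with the high Ddb2 value against 24.5 and 27.2 CPM in the other 2. Its part in the Ddb2 values was not tested.

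Ddb2 and Xpc were also set against the core factors within each library, as the log2 level minus the median or the mean of the 7 log2 levels. Transcript length cancels from a difference between genotypes on the mean. On the median it does so only while the same factor stays in the middle: Ercc1 held that place in all 12 libraries with a Trp53 allele and Ercc2 in 5 of the 6 Trp53-/- libraries. These values are descriptions.

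Against the mean of the core factors, Xpc shifted by 0.07 on the log2 scale between Trp53-/- and Trp53+/+ in Pole4-/- cells and by 0.08 in Pole4+/+ cells, with groups that overlapped. Ddb2 shifted by -1.38 in Pole4-/- cells, with all 3 Trp53-/- libraries lower, and by 0.47 in Pole4+/+ cells, where the groups overlapped. Against the median, the Ddb2 shifts were -1.45 and 0.54 and those of Xpc 0.00 and 0.16. The 1-allele loss moved Ddb2 by -0.85 against the mean in Pole4-/- cells, again without overlap, and by 0.36 in Pole4+/+ cells. The same step moved Xpc by -0.46 against the median in Pole4-/- cells but by -0.10 against the mean.

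**Figure D3:**
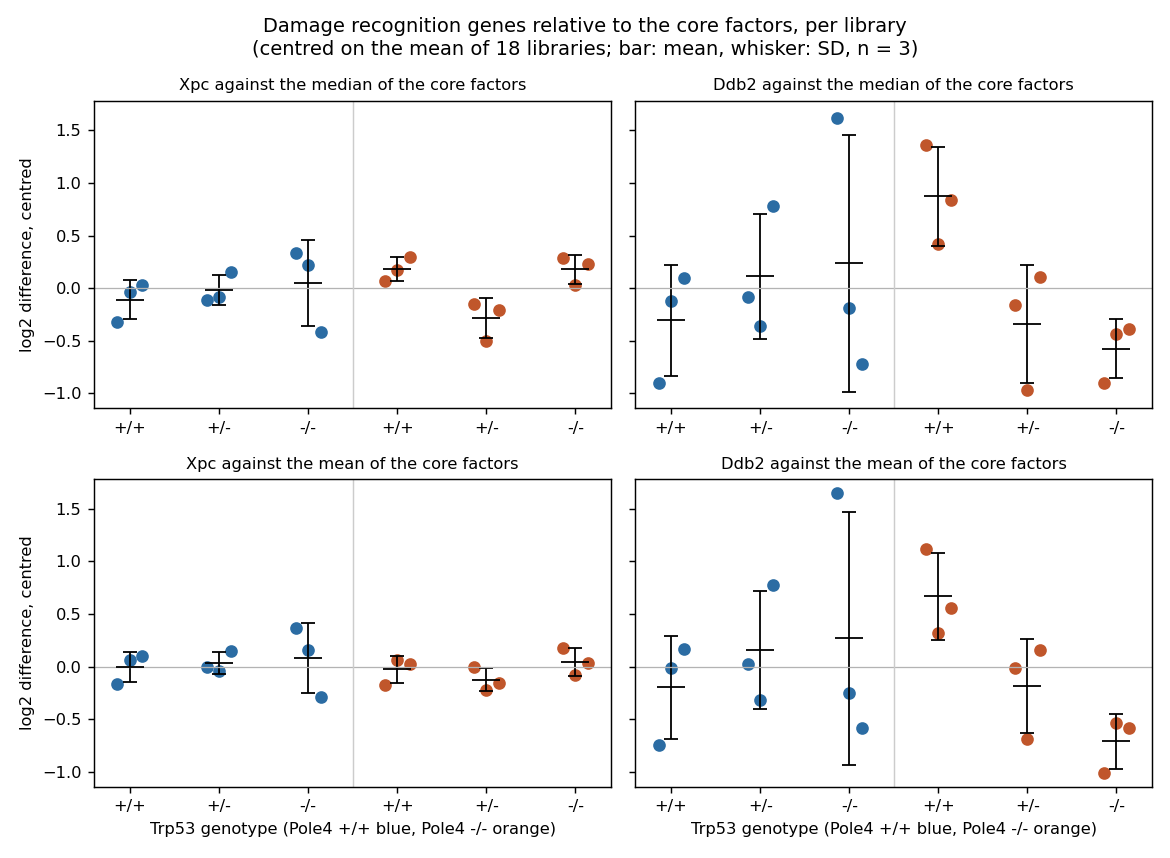
Log2 level of Xpc (left) and Ddb2 (right) minus the median (top) or mean (bottom) of the 7 core factors in each library, centred on the mean of the 18 libraries, with mean and SD per genotype. The Xpc libraries spread less than those of Ddb2. By genotype mean Ddb2 is highest in Pole4-/- Trp53+/+ cells and lowest in Pole4-/- Trp53-/- cells. The highest single library is a Pole4+/+ Trp53-/- one, and against the median the lowest is a Pole4-/- Trp53+/- one.

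Of the 2 recognition genes, Ddb2 was called in 1 comparison and Xpc in none in the main edgeR fit, and a difference between the 2 was not tested. Of 12 alternatives, 1 also called Ddb2 lower for 1-allele loss in Pole4-/- cells and 1 called it higher for Pole4 loss in Trp53+/+ cells. The gene called in most comparisons, 4 of 8, was a core factor, Ercc5. Its calls on loss of both Trp53 alleles in Pole4-/- cells, of 1 allele there, and of Pole4 in Trp53+/+ cells are not independent. All of these used the same Pole4-/- Trp53+/+ libraries, and the last 2 calls were lost when most single libraries were dropped.

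Ercc5 (ENSMUSG00000026048, chr1:44147744-44181260, plus strand) was read at 47.8, 45.4 and 45.2 CPM in Pole4-/- Trp53+/+ cells. It was 34.2, 25.3 and 36.3 CPM in Pole4-/- Trp53+/- cells and 15.5, 14.9 and 13.6 CPM in Pole4-/- Trp53-/- cells. The 3 groups did not overlap, and the order followed the number of Trp53 alleles.

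In Pole4+/+ cells Ercc5 was 32.0, 26.0 and 35.3 CPM with both Trp53 alleles, 27.9, 25.1 and 25.4 CPM with 1, and 17.4, 12.6 and 14.4 CPM with none. Here the first 2 groups overlapped and the third was below both. The Trp53-/- means of the 2 backgrounds, 14.8 and 14.6 CPM, overlapped, while the Trp53+/+ means were 31.1 and 46.2 CPM and did not.

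Loss of both Trp53 alleles changed Ercc5 by -1.66 on the log2 scale (SE 0.15, adjusted p = 2.16e-06) in Pole4-/- cells, where 44 of the 15710 genes had a lower p. In Pole4+/+ cells the change was -1.07 (SE 0.14, adjusted p = 5.14e-04), with 51 genes at a lower p. Leaving out any 1 library kept both calls, with values from -1.69 to -1.60 and from -1.24 to -0.97. The Pole4+/+ call was lost when only the 6 libraries compared were fitted (-1.07, adjusted p = 0.0719) and when libraries were scaled by their totals alone (-0.97, adjusted p = 0.0565), all by edgeR.

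Loss of 1 Trp53 allele called 1 of the 9 genes lower in Pole4-/- cells, Ercc5 at -0.53 (SE 0.14, adjusted p = 0.0444), and 0 higher, where 2.16% of all genes were called lower and 2.96% higher. The groups did not overlap for 2 genes downwards, Ercc5 and Ddb2, and for 3 upwards, Ddb1, Ercc1 and Ercc2, where 18.9% and 21.4% of all genes had such gaps. In Pole4+/+ cells this loss called 0 of the 9 genes in edgeR, DESeq2 and limma voom, with 0 at an unadjusted p below 0.05, beside 0.407% of all genes lower and 0.496% higher. Ercc5 there was -0.25 (SE 0.14, adjusted p = 0.624). All 3 Pole4+/+ Trp53+/- libraries had Y-linked transcripts above Xist and all 3 Pole4+/+ Trp53+/+ libraries the reverse, so sex and the lost allele cannot be told apart in that comparison. In Pole4-/- cells 1 of 3 Trp53+/- and 2 of 3 Trp53+/+ libraries had Y-linked transcripts above Xist. The Pole4-/- call was lost without each library but Trp53+/- replicate 3, with changes from -0.62 to -0.39 over the 6 libraries left out in turn and adjusted p up to 0.238 by edgeR. It was also lost with totals alone (-0.22, adjusted p = 0.591), with no filter on low counts (adjusted p = 0.0687) and with Xist as a covariate (-0.54, adjusted p = 0.0987).

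Loss of Pole4 in Trp53+/+ cells called 1 of the 9 genes higher, again Ercc5, at 0.57 (SE 0.14, adjusted p = 0.0388), and 0 lower, where 1.29% of all genes were called higher and 2.7% lower. The call was lost without each library but Pole4+/+ Trp53+/+ replicate 3, with values from 0.45 to 0.67 and adjusted p up to 0.201 by edgeR. It was also lost with totals alone (0.27, adjusted p = 0.488), with no filter on low counts (adjusted p = 0.0535) and with Xist as a covariate (0.58, adjusted p = 0.162). Sex was unbalanced here: Xist exceeded Y-linked transcripts in all 3 Pole4+/+ Trp53+/+ libraries and in 1 of 3 Pole4-/- Trp53+/+ libraries. Ddb2 was 0.99 (SE 0.50, adjusted p = 0.220), and it was 0.65 without Pole4-/- Trp53+/+ replicate 1. The groups did not overlap for 3 genes upwards, Ercc5, Ddb2 and Xpa, and for 3 downwards, Ddb1, Ercc1 and Ercc2, where 19.4% and 21.7% of all genes had such gaps. With totals alone Xpa turned from 0.24 to -0.040 on the log2 scale in this comparison, uncalled both times. In Trp53+/- and in Trp53-/- cells, loss of Pole4 called 0 of the 9 genes in edgeR, with 0 and 1 at an unadjusted p below 0.05 and 0 by DESeq2 and limma voom in each, beside 0.00637% of all genes called lower and 0% higher in the first and 0% and 0.00637% in the second. The gene at an unadjusted p below 0.05 was Ddb2 in Trp53-/- cells, at -1.44 (adjusted p = 0.447), and without the library high in Ddb2 it was -0.42.

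The Ercc5 changes with Trp53 loss in the 2 backgrounds differed by -0.59 on the log2 scale (SE 0.20, adjusted p = 0.0921 by edgeR), so a difference between backgrounds was not called. Without Pole4+/+ Trp53-/- replicate 2 it was, at -0.69 with adjusted p = 0.0441.

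The genes whose patterns over the 18 libraries were closest to that of Ercc5, by the root mean square difference of centred log2 CPM, were Cd81, Trim11, Susd6, Mmp2 and Polk, at 0.12 to 0.16 log2 units, where the median over all genes was 0.70. Ercc5 was given this listing after its values were seen. Polk, which encodes DNA polymerase kappa, one of the enzymes that fill the excised gap, is also on the list of pathway genes below. For Xpc the closest genes were Vps35l, St7l, Tmem161a, Pacs2 and Abhd12, at 0.08 to 0.09 log2 units against a median of 0.34. For Ddb2 they included Tmem229b, Fam102a, Mirg and Hgf, at 0.29 to 0.30 log2 units against 0.75.

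Ercc4 (ENSMUSG00000022545, chr16:13109684-13150617, plus strand), partner of ERCC1 in the nuclease that cuts on the 5′ side, was 13.9, 16.8 and 15.4 CPM in Pole4-/- Trp53+/+ cells and 10.7, 10.4 and 13 CPM in Pole4-/- Trp53-/- cells. The groups did not overlap, and the change was -0.43 on the log2 scale (SE 0.13, adjusted p = 0.0114). Without Pole4-/- Trp53+/+ replicate 2 or Pole4-/- Trp53-/- replicate 2 it was not called, with adjusted p up to 0.0568, and scaling by totals alone gave adjusted p = 0.113 by edgeR. In Pole4+/+ cells Ercc4 was 15.7, 14 and 13.9 CPM with Trp53 and 9.88, 11.6 and 13.7 CPM without it, a change of -0.32 (SE 0.12, adjusted p = 0.154), and without Trp53-/- replicate 3 it was called, at -0.45 with adjusted p = 0.0471.

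Its partner Ercc1 (ENSMUSG00000003549, chr7:19344778-19356524, plus strand) was not called. In Pole4-/- cells it was at 17.4, 20.1 and 16.5 CPM with Trp53 and at 18.9, 20.1 and 28.1 CPM without it, groups that overlapped, with a change of 0.31 (adjusted p = 0.180). In Pole4+/+ cells its change was -0.01 on the log2 scale (adjusted p = 0.993), with Trp53-/- libraries at 16.3, 21.3 and 28.7 CPM that straddled the Trp53+/+ range. Ercc1 shares 511 bases with Cd3eap on the other strand, Ercc2 1258 with Klc3 and Ddb1 328 with Tkfc, so some reads could belong to either gene of each pair.

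Ercc2 and Ercc3 encode the XPD and XPB helicases of TFIIH, which also serves transcription by RNA polymerase II. Ercc2 (ENSMUSG00000030400, chr7:19382010-19395694, plus strand) was 13.3, 12.5 and 12.2 CPM in Pole4-/- Trp53+/+ cells and 16.3, 15.6 and 15.8 CPM in Pole4-/- Trp53-/- cells. The second group was higher in every library, at 0.33 on the log2 scale (SE 0.14, adjusted p = 0.0815 by edgeR), which did not pass. It did pass with only these 6 libraries in the fit (adjusted p = 0.0237) and in limma voom (adjusted p = 0.0117).

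Ercc3 (ENSMUSG00000024382, chr18:32240300-32270151, plus strand) was the steadiest of the 9 genes, with genotype means from 37.0 to 38.9 CPM. Its change with Trp53 loss was 0.06 in Pole4-/- and 0.04 in Pole4+/+ cells, with 95% intervals from -0.11 to 0.22 and from -0.13 to 0.20. Ddb1 (ENSMUSG00000024740, chr19:10605327-10629819, plus strand), the adaptor of the CUL4 ubiquitin ligases that also partners DDB2, was likewise steady. Its genotype means ran from 683.9 to 758.1 CPM, and its changes were 0.04 (adjusted p = 0.778) and -0.10 (adjusted p = 0.583) in the 2 backgrounds.

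Xpa (ENSMUSG00000028329, chr4:46155347-46196311, minus strand) encodes the scaffold that verifies the lesion. It was 7.90, 8.10 and 7.09 CPM in Pole4-/- Trp53+/+ cells and 7.12, 5.34 and 6.10 CPM in Pole4-/- Trp53-/- cells, with groups that overlapped by 1 library. The change was -0.32 (SE 0.15, adjusted p = 0.105) there and -0.09 (adjusted p = 0.824) in Pole4+/+ cells. With upper-quartile scaling (-0.41, adjusted p = 0.0384) or a mean of at least 50 counts (-0.37, adjusted p = 0.0471) Xpa was called in Pole4-/- cells. Over 17057 bases its gene lies on the opposite strand of Ncbp1, which reached 102.0 CPM and moved the other way in Pole4-/- cells (0.69, adjusted p = 0.00101), so how reads were split between the 2 bears on the Xpa value and was not tested.

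The rest of the pathway was counted over 40 further genes, listed with earlier results of these data known. On loss of both Trp53 alleles in Pole4-/- cells, 28 were called higher, 3 lower and 9 not called, with a median log2 fold change of 0.64 beside -0.02 over all genes, of which 21.8% were called higher and 20.8% lower. In Pole4+/+ cells 5 were called higher, 1 lower and 34 not called, with a median of 0.18 beside 0.03 over all genes, of which 2.23% were higher and 2.37% lower. On loss of 1 Trp53 allele 8 were higher and 1 lower in Pole4-/- cells, beside 2.96% and 2.16% of all genes. Loss of Pole4 in Trp53+/+ cells lowered 10 and raised 1, beside 2.7% and 1.29% of all genes.

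**Figure D4:**
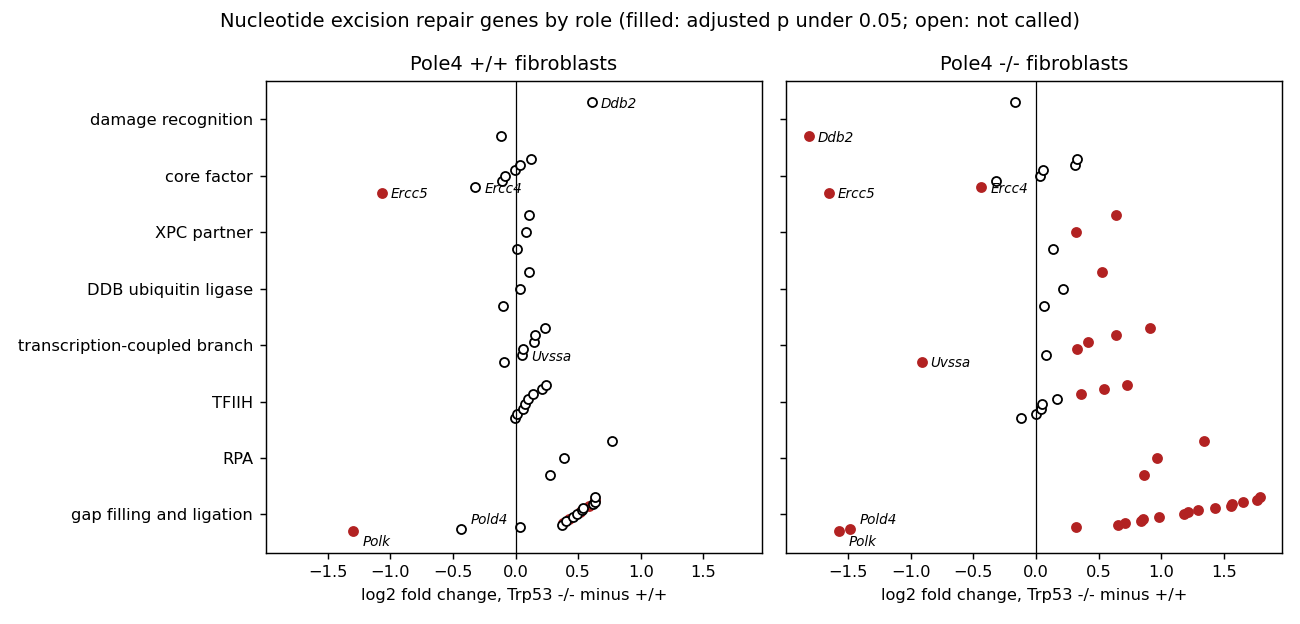
Log2 fold change on loss of both Trp53 alleles (horizontal axis) for the 9 genes and the 40 further pathway genes, 1 point per gene in rows by role, in Pole4+/+ (left) and Pole4-/- (right) cells, filled red where the adjusted p was below 0.05. In the Pole4-/- panel 15 genes for gap filling lie to the right, from 0.32 to 1.79, and Polk, Pold4, Ddb2 and Ercc5 to the left.

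Of the 28 genes called higher in Pole4-/- Trp53-/- cells, 15 were for gap filling and ligation and 3 for RPA. Subunits of DNA polymerases delta and epsilon, counted here under gap filling, also serve DNA replication. The study reports that genes for the initiation of DNA replication rose on Trp53 loss, so these rises need not be particular to repair. All 3 subunits of RPA, which coats single-stranded DNA, rose: Rpa1 by 0.97, Rpa2 by 1.35 and Rpa3 by 0.86 on the log2 scale. Of the 17 genes for gap filling and ligation, 15 rose, among them Rfc1 (0.85, adjusted p = 3.84e-06) and Rfc5 (1.65, adjusted p = 1.08e-05), which encode subunits of the clamp loader. Polk (-1.57, adjusted p = 4.21e-08) and Pold4 (-1.48, adjusted p = 4.97e-05), a small subunit of DNA polymerase delta that is named here after its value was seen, fell. Polk also fell in Pole4+/+ cells (-1.3, adjusted p = 4.69e-07), where Rfc1 (0.43) and Rfc2 (0.52) rose.

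Polk was read at 50.8, 56.8 and 58.8 CPM in Pole4-/- Trp53+/+ cells and at 20.4, 18 and 17.6 CPM in Pole4-/- Trp53-/- cells. In Pole4+/+ cells it was 41.8, 41.3 and 46.8 CPM with Trp53 and 17.9, 18.2 and 16.7 CPM without. As with Ercc5, the groups were apart in both backgrounds.

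Fewer of the other genes were called in Pole4-/- cells. Rad23b (0.64, adjusted p = 9.16e-04), which encodes a partner that stabilises XPC, rose, and Cetn2, which encodes another, was not called. Cul4b (0.53, adjusted p = 4.80e-04) rose, and Cul4a and Rbx1, the other members of the DDB ubiquitin ligase, were not called. In the transcription-coupled branch 4 of 6 genes rose, among them Tcea1 (0.64) and Ercc8 (0.91), and Uvssa fell (-0.91, adjusted p = 0.00907). Of 8 further TFIIH genes Gtf2h2 (0.72), Gtf2h4 (0.55) and Gtf2h1 (0.36) rose and 5 were not called. In Pole4+/+ cells all 6 genes called of the 40 were for gap filling and ligation.

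Summed markers of several cell types also differed between the Trp53 groups in Pole4-/- cells. The summed level of the 9 fibroblast markers was 16327 to 20351 CPM with Trp53 and 9862 to 12295 CPM without it, and that of 5 skeletal muscle markers 139.9 to 149.0 CPM and 52.9 to 67.4 CPM. Those of 4 neuron markers, 39.5 to 45.2 CPM and 50.7 to 74.2 CPM, and of 4 epithelial markers, 2.02 to 2.67 CPM and 4.19 to 20.02 CPM, went the other way without overlap. In every library 3 of the 4 neuron markers and 2 of the 4 epithelial markers were below 1 CPM, so the neuron sum rested almost on 1 gene. The macrophage and endothelial sums overlapped. The ribosomal RNA share overlapped too, at 7.11% to 42.5% with Trp53 and 24.7% to 30.0% without it. In Pole4+/+ cells the fibroblast sums overlapped, at 11757 to 15423 CPM and 12627 to 16931 CPM, while those of muscle were 113.6 to 151.4 CPM and 42.5 to 50.4 CPM and those of neurons 40.5 to 48.1 CPM and 56.0 to 72.5 CPM. In all 3 libraries of each of these Pole4+/+ groups Xist exceeded Y-linked transcripts, although Trp53-/- replicate 1 also held the 9.08 CPM given above, and of the 3 libraries of each Pole4-/- group 2 with Trp53 and 1 without it had Y-linked transcripts. The part of these measures in the changes of the repair genes was not tested beyond a covariate for Xist and for the ribosomal share, under which Ercc5, Ddb2 and Ercc4 were still called on loss of both Trp53 alleles in Pole4-/- cells.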

How the data were processed

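Per the labels and the study's methods, RNA of passage 1 fibroblasts was amplified to cDNA with a kit that does not mark strand and sequenced in pairs. The deposited values are expected counts per Ensembl gene, which the authors made with RSEM 1.3.0 and STAR 2.5.2 on GRCm38, per the submitters' processing notes, which also name DESeq2 1.10.1. RSEM shares reads between genes by estimate, so 6.14% of the values were not whole, and they were rounded. Symbols came from GENCODE M21 for 51719 of 51912 rows. Coordinates are from the same annotation.

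Library totals of 9535971 to 35319918 set the precision, which is poorest for Ddb2. All 18 libraries were fitted with edgeR 4.0.16 in R 4.3.3 (filterByExpr, TMM scaling, 1 mean per genotype, robust quasi-likelihood F-test, 12 residual degrees of freedom) over 15710 genes. Benjamini-Hochberg adjusted p below 0.05 was called. Intervals are 95% and SEs are the change divided by the root of F. DESeq2 1.42.0, limma 3.58.1, other scalings, filters, covariates and leaving out each library were alternatives, and the ribosomal share as a covariate was chosen after seeing the data. The fit was tested on simulated data. Groups and replicate numbers came from the labels. Same-numbered libraries correlated over 0.1 in 10 of 21 pairs (-0.114 to 0.497), and in all 3 pairs only for Pole4-/- against Pole4+/+ in Trp53+/- cells. No libraries were duplicates.

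The members, the pathway list and the cell type markers were chosen with earlier results of these data known. Named were all 9 members, label checks, up to 3 pathway genes per role with the lowest p among those called with Trp53 loss in each background, overlapping genes, and the 5 genes most like Xpc and Ddb2, except that some items are not reported here. Promoters were from RefSeq on GRCm38.p6, with entries matched for 6 of the 9 genes and none for Xpc, Ddb2 and Ercc3.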

Additional observations from a re-analysis of the deposited data

Results flagged for a closer look

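Y-linked genes summed to 9.08 CPM in Pole4+/+ Trp53-/- replicate 1, a library that expressed Xist. This drew attention because Y-linked genes enter none of the comparisons, and the other 10 libraries with Xist had at most 0.337 CPM of them. The 7 libraries with Y-linked transcripts as their main sex-linked signal had at least 133.6 CPM. The same library held the highest Ddb2 level of the 18, 3.01 CPM from 108 counts, and whether the source of the Y-linked reads bears on that value was not tested.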

How the results depend on the processing

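The fall of Ercc5 on loss of both Trp53 alleles in Pole4-/- cells was called under all 13 alternatives that kept every library of the comparison, from -1.75 to -1.61. The number of the 9 genes called lower there was 3, and over the alternatives it ran from 1 at an adjusted p under 0.01, through 2 with totals alone or a log2 change of at least 1, to 4 with upper-quartile scaling, which added Xpa. With a mean of at least 50 counts the 3 included Xpa in place of Ddb2. Called higher was 1 gene, Ercc2, with limma voom and with only the libraries compared. In Pole4+/+ cells 2 were lower with voom, 0 with totals alone and 0 with only the libraries compared. For 1-allele loss in Pole4-/- cells 2 were lower with voom and 0 with totals alone, no filter on low counts, Xist as a covariate, adjusted p under 0.01 or a log2 change of at least 1. For Pole4 loss in Trp53+/+ cells voom called 2 lower and 2 higher, and those same 5 settings called 0 higher. For the difference between backgrounds DESeq2 and voom called 1 lower, where DESeq2 called 863 of all 15710 genes lower and 928 higher. The causes were not tested.

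Under the alternatives that kept every library of the comparison 44 changes of the 9 genes turned direction, 9 of them for Xpc, 10 for Xpa, 10 for Ercc3, 6 for Ercc1, 5 for Ddb1, 2 for Ercc4, 2 for Ercc5 and 0 for Ddb2 and Ercc2, and 0 of the 44 were called on either side. For Xpc they were 0.19 (1-allele loss, Pole4-/-, totals), 0.039, 0.0073 and 0.00415 (1-allele loss, Pole4+/+, voom, upper quartile and mean of at least 50 counts), 0.042, 0.055, 0.045 and 0.0099 (Pole4 loss, Trp53+/+, voom, upper quartile, mean of at least 50 counts and only the libraries compared) and 0.00511 (difference between backgrounds, no filter). For Ercc5 on Pole4 loss in Trp53-/- cells they were 0.18 with voom and 0.22 with the ribosomal share as a covariate. Against the mean in place of the median of the core factors, which weighs Ddb1 more, Xpc was at -1.68, -1.64 and -1.59 in Pole4+/+ cells with 2, 1 and 0 Trp53 alleles and at -1.70, -1.80 and -1.63 in Pole4-/- cells, and Ddb2 at -3.95 and -5.33 in Pole4-/- cells with 2 and 0 alleles.

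With each library dropped in turn, 2 to 3 genes were called lower for Trp53 loss in Pole4-/- cells, 1 to 2 in Pole4+/+ cells, 0 to 1 for 1-allele loss in Pole4-/- cells, 0 to 1 higher for Pole4 loss in Trp53+/+ cells and 0 to 2 lower for the difference between backgrounds. Ddb2 ran from -0.43 to 0.92 for Trp53 loss in Pole4+/+ cells and from -0.50 to 0.031 for Pole4 loss in Trp53+/- cells, and Ercc5 from -0.12 to 0.13 for Pole4 loss in Trp53-/- cells. Xpc ran from -0.057 to 0.032 for 1-allele loss in Pole4+/+ cells, -0.088 to 0.047 for Pole4 loss in Trp53+/+ and -0.15 to 0.038 in Trp53-/- cells, and -0.14 to 0.042 for the difference.

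The replicate block changed no call of the 9 genes, with 3 lower for Trp53 loss in Pole4-/- cells and Ercc5 at -1.65. Scaling by totals alone moved the median of all genes by -0.42 for Pole4 loss in Trp53-/- cells, -0.29 in Trp53+/+ cells, 0.29 for 1-allele loss in Pole4-/- cells and -0.13 for the difference, and 97.5% of calls were then lower for Pole4 loss in Trp53+/+ cells against 67.7%, and 97.0% higher for 1-allele loss in Pole4-/- cells against 57.8%. Ddb2 was not tested at a mean of at least 50 counts, and its low counts limit its values most.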
